A study of Mus musculus with 65 samples.

Results

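The genes described here encode the secreted and membrane-bound metalloproteases that cut extracellular matrix and the proteins that inhibit them. They were chosen by gene symbol alone: all genes named Mmp, Timp, Adamts or Adamtsl with a number in the tables of mouse bone and marrow niche cells and of hematopoietic stem and progenitor cells (HSPCs). This gave 51 genes of the 44353 in the niche table, made up of 23 matrix metalloproteinases (MMPs), 4 tissue inhibitors of metalloproteinases (TIMPs), 19 ADAMTS proteases and 5 ADAMTS-like proteins. The same 51 genes were found by gene ID among 47526 genes of N-cadherin reporter cells after 5-fluorouracil (5FU). The HSPC table held 52 matching rows among 44485 genes, because the symbol Mmp27 stood there beside a second gene ID.

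RNA was sequenced from 65 libraries of cells sorted by flow cytometry from mouse femur and tibia, in 17 groups of 3 to 6 libraries. After 5FU, an antimetabolite that kills dividing cells, Tomato+ cells of the N-cadherin reporter were taken from bone (5Fu_Ncad_bone, n = 3) and from marrow (5Fu_Ncad_marrow, n = 3). In homeostasis, Tomato+ cells negative for CD45, Ter119 and CD31 were taken from bone (Ncad_bone, n = 4) and from marrow (Ncad_marrow, n = 4). With the same negative gate, cells carried a Col2.3-GFP reporter (Col23_GFP, n = 4; a collagen I promoter fragment used to mark osteoblasts), Ng2-RFP (Ng2_rFP, n = 4), Pecam-GFP (Pecam_GFP, n = 4), Cxcl12-DsRed (Cxcl12_rFP, n = 4) or Nestin-GFP (Nestin_GFP, n = 4), or were Lepr+ (Lepr, n = 6). Among CD45+ cells, Mac was F4/80+ and negative for YFP and lymphoid markers (n = 4), and MK was YFP+ from Pf4-Cre with R26-YFP (n = 4), a Cre driver of the megakaryocyte lineage that is known to label some other blood cells too. HSPCs were lineage-negative, Sca-1+ and c-Kit+ (LSK). They were 5FuReserve, sorted on day 3 after 5FU with the reserve gate (n = 3), MPP, Flk2+ CD34+ (n = 4), ST, Flk2- CD34+ (n = 3), Primed, Flk2- CD34- CD49b+ (n = 3), and Reserve, Flk2- CD34- CD49b- (n = 4). The sources used here do not give strain, age, the dose of 5FU, the day after 5FU for niche cells, or whether a library pooled animals. The p-values therefore rest on the spread between libraries, which may be technical.

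MMPs are zinc proteases made as inactive precursors. They are opened in the matrix, at the cell surface or inside the cell, and are blocked by TIMPs. The collagenases cut triple-helical collagen, the gelatinases cut its denatured chains, the stromelysins cut many other matrix proteins, and MMP14 at the cell surface activates pro-MMP2 with TIMP2 as adaptor. ADAMTS proteases trim procollagens or cut aggrecan, versican and other proteoglycans, while ADAMTSL proteins lack the protease domain, and several bind microfibrils. In bone these enzymes are known for the remodelling of collagen and of growth plate cartilage, and in marrow for neutrophil granules and the release of niche factors.

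Values are FPKM, fragments counted on a gene scaled by its transcript length and by the mapped fragments of the library, so levels of different genes can be set side by side, but the read depth behind each value is unknown. Between 11649 and 14258 genes reached 1 FPKM in a library. Each fold change was taken after adding 1 to the FPKM, in log2 units, which understates changes of low genes. It is given ± its standard error, with a Benjamini-Hochberg adjusted p from limma over all tested genes, and means of levels are given ± SD. Fewer cells of a type and less RNA per cell cannot be told apart in these sorted samples.

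Several groups did not look uniform or did not match their label in all markers. In Ncad_bone, replicates 1 and 2 carried the higher sums over 11 chondrocyte genes, with a range over the 4 libraries of 447 to 1647 FPKM, against 11.3 to 23.5 FPKM in Ncad_marrow. In MK, replicates 3 and 4 carried sums over 12 neutrophil genes of 380663 and 324392 FPKM, against 112645 and 87780.4 FPKM in replicates 1 and 2. In Mac these sums were 393664 to 571905 FPKM, while the macrophage genes C1qa, C1qb and C1qc averaged 2.09 FPKM, 4.95 FPKM and 1.79 FPKM, so the label Mac is used here as a name only. Col23_GFP libraries also carried skeletal muscle genes, with sums of 2704 to 4464 FPKM, against 13.7 to 22.3 FPKM in Lepr, and chondrocyte genes at 1705 to 2125 FPKM. Their neutrophil sums were 1494 and 1703 FPKM in replicates 1 and 4, against 10944 and 3671 FPKM in replicates 2 and 3. Replicates 1 and 4 were higher for Mmp2, Mmp3, Mmp10, Mmp14, Mmp16, Mmp23 and Timp2, and lower for Timp1 and Adamtsl1. The Pecam-GFP sort is labelled CD31-, although Pecam1 encodes CD31, and its sum over 10 endothelial genes was 2230.0 to 2962 FPKM, against 8.38 to 32.8 FPKM in Lepr. In 5FuReserve the sum over 7 B cell genes was 1191 to 1238 FPKM, against 49 to 77.3 FPKM in Reserve.

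In homeostasis the niche cells held most of the expression. Of the 51 genes, 28 reached a mean of 5 FPKM in at least 1 of the 10 niche populations, and 14 reached 50 FPKM. The remaining genes were low: 13 stayed under 1 FPKM in the mean of each niche population, among them Mmp1a, Mmp1b and Mmp7, relatives of the human interstitial collagenase and of matrilysin. Of the 28, Pecam_GFP held the highest mean for 6, and for all 6 its lowest library stood above the highest library of any other population. Col23_GFP also held the highest mean for 6, Ncad_bone for 4, Mac and Ncad_marrow for 3 each, Ng2_rFP and Nestin_GFP for 2 each, and Cxcl12_rFP and MK for 1 each. In all, 12 of the 28 had a top population whose libraries did not overlap with any other. The share of all genes with such a top population was not counted, so these counts stand without a background. The moderated F test over the 10 populations called 40 of the 40 genes tested, where 89.0% of all 18972 tested genes were called, so this count is close to the background.

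**Figure D1:**
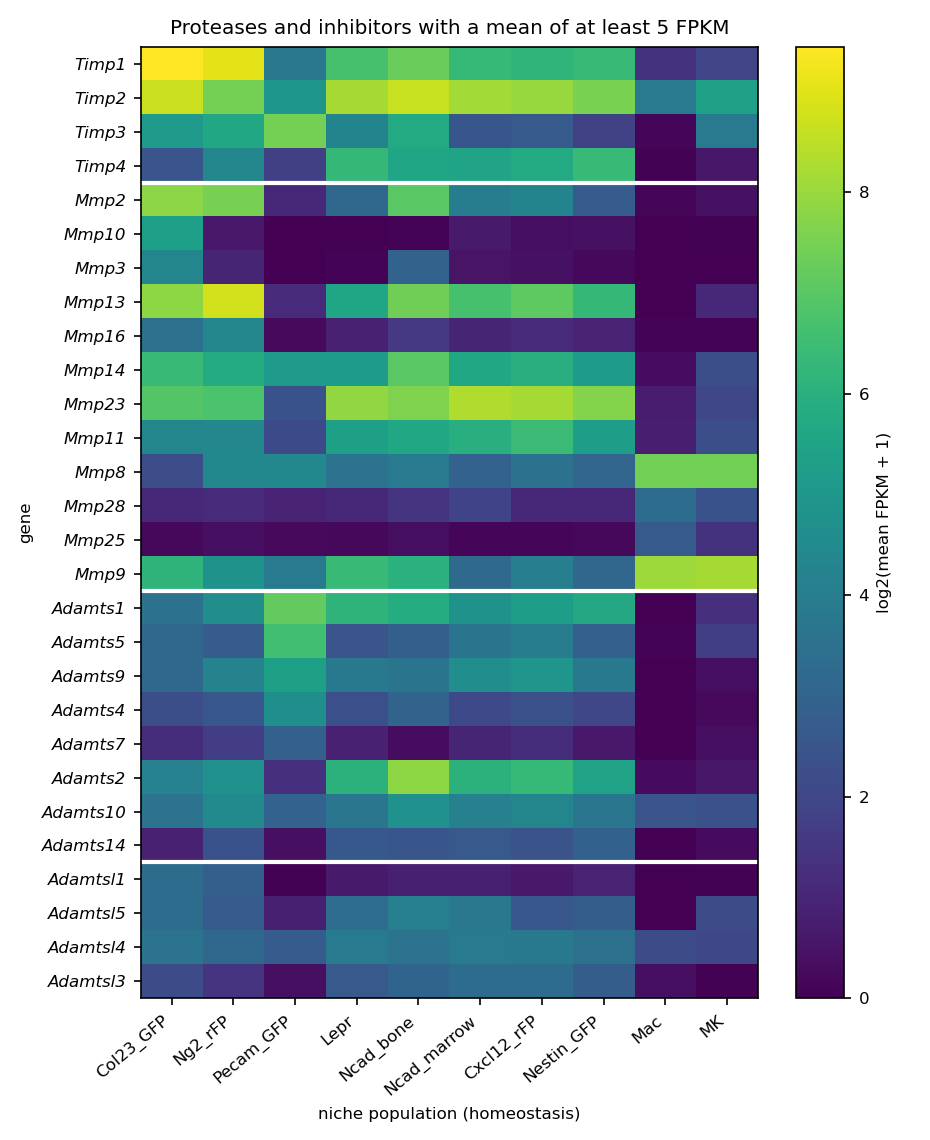
Mean level of the 28 genes that reached a mean of 5 FPKM in a niche population, as log2(mean FPKM + 1) in colour, with genes in rows (TIMPs, MMPs, ADAMTS and ADAMTSL from top to bottom) and the 10 populations in columns. Timp1, Timp2 and Mmp23 are bright across the mesenchymal columns, Mmp8 and Mmp9 in Mac and MK, and Timp3, Adamts1 and Adamts5 in Pecam_GFP.

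The 4 inhibitors had unlike distributions over the niche populations, although Timp1 and Timp2 both had their highest mean in Col23_GFP. Timp1 (ENSMUSG00000001131, chromosome X, 20870166 to 20874735, plus strand), the soluble inhibitor of most secreted MMPs, was highest in Col23_GFP at 663, 758, 689 and 666 FPKM, followed by Ng2_rFP at 521, 555, 515 and 513 FPKM. Lepr libraries lay between 78.4 and 136 FPKM with a median of 104 FPKM, and the 3 ranges did not overlap. Timp2, the adaptor for MMP2 activation, was the most even of the 4 over the 7 populations other than Pecam_GFP, Mac and MK, with means from 178 FPKM in Ng2_rFP to 407 FPKM in Col23_GFP. Col23_GFP and Ncad_bone, neighbours in this order, overlapped for Timp2, with 486, 278, 365 and 497 FPKM in Col23_GFP and 421, 413, 389.6 and 388 FPKM in Ncad_bone. Timp4 (ENSMUSG00000030317, chromosome 6, 115241892 to 115252205, minus strand) ran the other way and was highest in Nestin_GFP, at 76.2, 93.8, 84.3 and 79.5 FPKM, and in Lepr, between 49.3 and 95.4 FPKM with a median of 80.6 FPKM, which overlapped. In Col23_GFP, Timp4 was at 4.16, 6.12, 3.97 and 4.0 FPKM, below all libraries of Ng2_rFP and Lepr, so Timp1 and Timp4 had opposite orders over these 3 populations.

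Timp3 (ENSMUSG00000020044, chromosome 10, 86300372 to 86349506, plus strand), the inhibitor that binds matrix and also blocks aggrecanases, stood apart. It was at 167, 176, 172 and 185 FPKM in Pecam_GFP, and no library elsewhere exceeded 80.9 FPKM, a Ncad_bone library. The gene overlaps Syn3 on the other strand, and the use of strand in the counting is not given, so reads of Timp3 and Syn3 cannot be told apart. Syn3 averaged 192 FPKM in Pecam_GFP and 18.3 FPKM in Lepr, while Timp3 averaged 175 ± 7.46 FPKM (n = 4) in Pecam_GFP and 18 ± 2.49 FPKM (n = 6) in Lepr.

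Several collagenase and stromelysin genes lie together. Mmp13, Mmp3, Mmp10 and Mmp8 belong to a run of 10 Mmp genes within 427 kb of mouse chromosome 9 (7272514 to 7699585 on mm10, GENCODE M21). Mmp13 (ENSMUSG00000050578, chromosome 9, 7272514 to 7283331, plus strand), the main collagenase of mouse osteoblasts and hypertrophic chondrocytes, was expressed at 393, 487, 493 and 402 FPKM in Ng2_rFP, at 244, 217, 205 and 253 FPKM in Col23_GFP and between 26.9 and 66.4 FPKM with a median of 42.5 FPKM in Lepr. Ng2_rFP stood above all other niche libraries for Mmp13, and Pecam_GFP averaged 1.22 ± 0.634 FPKM (n = 4). Mmp3, stromelysin-1, was at 29.7, 7.64, 8.0 and 31.1 FPKM in Col23_GFP and 7.24, 5.78, 7.0 and 8.46 FPKM in Ncad_bone, and at most 2.32 FPKM in any library of the other 8 populations. Mmp10, stromelysin-2, was at 80.03, 1.03, 2.37 and 72.6 FPKM in Col23_GFP, where replicates 1 and 4 were high and replicates 2 and 3 were not, and no other niche library exceeded 2.06 FPKM. Mmp8, the neutrophil collagenase at the far end of the 4, had another distribution, with 174 ± 19.8 FPKM (n = 4) in Mac and 3.74 ± 3.09 FPKM (n = 4) in Col23_GFP. The 250 bases before the RefSeq start of these 4 genes (GRCm38.p6, plus strand) are shown because the 4 neighbours differ in where they are expressed. Capitals mark the AP-1 motif, searched as TGANTCA. They also mark the TATA box, searched with the letters TATAAA. The core of the RUNX motif is marked where it reads TGTGGT on the plus strand. On the minus strand that core reads ACCACA from left to right. All 3 were searched on both strands.

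Mmp13, chr9:7272264-7272513: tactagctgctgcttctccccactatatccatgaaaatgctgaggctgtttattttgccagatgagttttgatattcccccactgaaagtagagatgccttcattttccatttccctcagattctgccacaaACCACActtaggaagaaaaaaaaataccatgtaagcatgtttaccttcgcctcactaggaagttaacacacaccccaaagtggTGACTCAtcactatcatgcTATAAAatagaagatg
Mmp3, chr9:7445572-7445821: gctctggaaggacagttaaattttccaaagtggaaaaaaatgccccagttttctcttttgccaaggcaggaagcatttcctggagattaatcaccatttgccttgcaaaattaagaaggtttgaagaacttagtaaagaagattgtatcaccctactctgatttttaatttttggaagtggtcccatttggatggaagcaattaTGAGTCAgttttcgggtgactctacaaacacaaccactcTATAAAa
Mmp10, chr9:7502092-7502341: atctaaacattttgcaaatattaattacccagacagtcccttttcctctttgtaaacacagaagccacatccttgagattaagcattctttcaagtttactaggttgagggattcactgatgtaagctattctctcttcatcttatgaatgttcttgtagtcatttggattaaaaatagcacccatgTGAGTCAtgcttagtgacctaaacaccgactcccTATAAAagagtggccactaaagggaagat
Mmp8, chr9:7558179-7558428: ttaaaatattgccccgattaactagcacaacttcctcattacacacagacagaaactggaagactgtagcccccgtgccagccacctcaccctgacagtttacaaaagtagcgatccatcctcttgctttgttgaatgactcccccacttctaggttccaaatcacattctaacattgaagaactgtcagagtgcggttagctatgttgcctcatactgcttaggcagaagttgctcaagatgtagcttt

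The AP-1 letters began 35, 46 and 63 bases before the start in Mmp13, Mmp3 and Mmp10, and the TATA letters 16, 7 and 29 bases before it. Only Mmp13 among these 4 held the RUNX letters, 118 bases before the start, and the Mmp8 window held none of the 3 motifs. Of 32851 promoter windows of the same length in the RefSeq table, 6.75% held the AP-1 letters, 12.4% the TATA letters, 14% the RUNX letters and 1.21% both AP-1 and TATA letters. Of the 51 genes, 36 had an entry in that table, and 7 of these held both: Mmp1a, Mmp1b, Mmp3, Mmp7, Mmp10, Mmp13 and Mmp20. These matches describe letters only.

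Col23_GFP, Ng2_rFP and Pecam_GFP were each compared with Lepr, the leptin receptor stromal cells of the marrow, to ask how bone-forming, Ng2-marked and endothelial populations differ from them. The 3 comparisons share the Lepr libraries. In Col23_GFP, 25 of 40 tested genes were called, 16 higher and 9 lower, where 45.0% of all genes were called (28.2% higher and 16.8% lower) and the median log2 fold change was 0.28 over these genes and 0.08 over all genes. In Ng2_rFP, 26 of 40 were called, 17 higher and 9 lower, where 30.2% of all genes were called (16.1% higher and 14.1% lower) and the median log2 fold change was 0.31 over these genes and 0.007 over all genes. In Pecam_GFP, 26 of 40 were called, 8 higher and 18 lower, where 41.7% of all genes were called (19.7% higher and 22.0% lower) and the median log2 fold change was -0.33 over these genes and -0.03 over all genes.

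Mmp2, gelatinase A, had the largest log2 fold change of the 40 tested genes in both Col23_GFP and Ng2_rFP. Its level was 312, 124, 172 and 287 FPKM in Col23_GFP and between 5.5 and 10.8 FPKM with a median of 8.47 FPKM in Lepr (log2 fold change 4.57 ± 0.22, limma adjusted p = 3.05e-19). In Ng2_rFP it was 209, 179.8, 139 and 199 FPKM (log2 fold change 4.35 ± 0.22 against Lepr, limma adjusted p = 1.41e-18). Mmp13 was higher in both as well, with log2 fold changes of 2.39 ± 0.27 in Col23_GFP and 3.33 ± 0.27 in Ng2_rFP. Mmp16, a membrane-type MMP, was at 13.5, 5.99, 8.18 and 12.8 FPKM in Col23_GFP, 19.6, 19.3, 19.7 and 17.4 FPKM in Ng2_rFP and between 0.451 and 1.47 FPKM with a median of 0.746 FPKM in Lepr, and rose by 2.57 ± 0.24 and 3.48 ± 0.24 on the log2 scale. Neither Col23_GFP nor Ng2_rFP overlapped with Lepr for Mmp2, Mmp13 or Mmp16.

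Mmp3 was called in both, at a log2 fold change of 3.96 ± 0.25 in Col23_GFP and 0.75 ± 0.25 in Ng2_rFP against Lepr, where no library exceeded 0.148 FPKM. The Ng2_rFP call was lost with the replicate number as a block (limma adjusted p = 0.0557) and without Ng2_rFP replicate 2 (limma adjusted p = 0.196). Mmp10 was called in Col23_GFP (log2 fold change 3.81 ± 0.57, limma adjusted p = 9.43e-07), and its value was 1.36 without replicates 1 and 4, the libraries that held most of it. Mmp14, the membrane-type MMP that activates pro-MMP2, was at 97.8, 73.8, 64.2 and 94.1 FPKM in Col23_GFP, 58.7, 57.5, 48.3 and 57.8 FPKM in Ng2_rFP and between 27.1 and 44.7 FPKM with a median of 33.2 FPKM in Lepr, with log2 fold changes of 1.21 ± 0.22 in Col23_GFP and 0.67 ± 0.22 in Ng2_rFP. Both groups lay above all Lepr libraries, so the activator and its target Mmp2 were both higher.

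Other proteases were lower in the bone-side cells. Mmp23, a type II membrane MMP, was 154, 68.1, 106 and 144 FPKM in Col23_GFP, 121, 116, 87.2 and 110.0 FPKM in Ng2_rFP and between 191 and 314 FPKM with a median of 213 FPKM in Lepr (log2 fold changes -1.06 ± 0.27 and -1.12 ± 0.27 against Lepr). Mmp11, stromelysin-3, which furin activates inside the cell, was 20.4, 18.4, 17.9 and 19.1 FPKM in Col23_GFP, 17.8, 22.9, 14.1 and 24.9 FPKM in Ng2_rFP and between 32.8 and 51.3 FPKM with a median of 39.9 FPKM in Lepr (log2 fold changes -1.04 ± 0.29 and -1.004 ± 0.29). Mmp11 overlaps Chchd10 on the other strand, which averaged 159 FPKM in Col23_GFP, 17.9 FPKM in Ng2_rFP and 11.3 FPKM in Lepr, so the reads of the pair cannot be told apart. With a pseudocount of 0.1 Mmp11 was not called in either (limma adjusted p = 0.0705 in Col23_GFP and 0.111 in Ng2_rFP). Adamts1, which cuts versican and aggrecan, was 11.7, 11.5, 8.21 and 11.6 FPKM in Col23_GFP, 26.9, 21.5, 23.9 and 26.3 FPKM in Ng2_rFP and between 62.5 and 78.7 FPKM with a median of 68.9 FPKM in Lepr (log2 fold changes -2.61 ± 0.26 and -1.48 ± 0.26). Adamts2, the procollagen N-proteinase, was 19.3, 17.5, 13 and 19.4 FPKM in Col23_GFP, 28, 27.1, 25.8 and 25.7 FPKM in Ng2_rFP and between 51.8 and 108 FPKM with a median of 56.5 FPKM in Lepr (log2 fold change -1.84 ± 0.26 and -1.23 ± 0.26). The groups did not overlap with Lepr for Mmp23, Mmp11, Adamts1 or Adamts2. Adamts14, which does the same reaction, averaged 0.80 ± 0.0154 FPKM (n = 4) in Col23_GFP and 5.12 ± 0.814 FPKM (n = 6) in Lepr (log2 fold change -1.76 ± 0.18), and was not called in Ng2_rFP (log2 fold change -0.24 ± 0.18).

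Some ADAMTS and ADAMTSL genes differed between the 2 comparisons. Adamts9, which cuts versican, was at 7.46, 9.39, 6.73 and 7.65 FPKM in Col23_GFP, 19.6, 15.8, 16.3 and 18.9 FPKM in Ng2_rFP and between 10.6 and 15.6 FPKM with a median of 13.2 FPKM in Lepr. It was lower than Lepr in Col23_GFP (log2 fold change -0.69 ± 0.12) and higher in Ng2_rFP (log2 fold change 0.39 ± 0.12), without overlap with Lepr. The Ng2_rFP call was lost in 2 of 16 alternatives (highest limma adjusted p = 0.102). Adamts10, a fibrillin-binding protease, was higher in Ng2_rFP, at 24.2, 18.3, 20.2 and 25.6 FPKM in Ng2_rFP and between 8.3 and 17.9 FPKM with a median of 10.7 FPKM in Lepr (log2 fold change 0.88 ± 0.23). It did not pass the test in Col23_GFP (log2 fold change -0.07 ± 0.23). Adamtsl3, an ADAMTS-like protein, was at 5.5, 2.03, 2.34 and 4.25 FPKM in Col23_GFP, 1.5, 2.12, 1.44 and 2.03 FPKM in Ng2_rFP and between 3.45 and 7.17 FPKM with a median of 5.29 FPKM in Lepr. Its log2 fold changes were -0.52 ± 0.18 in Col23_GFP, where the groups overlapped, and -1.17 ± 0.18 in Ng2_rFP, where they did not. Its Col23_GFP call was lost in 4 of 16 alternatives (highest limma adjusted p = 0.121). Adamtsl4, of the same family, was at 9.11, 6.84, 3.23 and 12.7 FPKM in Ng2_rFP and between 10.1 and 16 FPKM with a median of 13.4 FPKM in Lepr, which overlapped. Its call as lower in Ng2_rFP (log2 fold change -0.78 ± 0.30) was lost in 9 of 16 alternatives (highest limma adjusted p = 0.297).

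The inhibitors moved unequally in the same comparisons. Timp1 rose by 2.77 ± 0.36 on the log2 scale in Col23_GFP and 2.37 ± 0.36 in Ng2_rFP against Lepr. Timp4 fell in both, with log2 fold changes of -3.81 ± 0.21 in Col23_GFP and -1.93 ± 0.21 in Ng2_rFP. Timp2 was called higher in Col23_GFP (log2 fold change 0.50 ± 0.17) and lower in Ng2_rFP (log2 fold change -0.65 ± 0.17). The Col23_GFP call was lost without Col23_GFP replicate 1 or replicate 4, and the log2 fold change without both was 0.18. It was also lost with median-of-ratios scaling, with the replicate number as a block and in a fit of just the 2 groups (limma adjusted p between 0.0639 and 0.132). Timp3 was called in Ng2_rFP (log2 fold change 1.36 ± 0.51, limma adjusted p = 0.0378) and not in Col23_GFP (log2 fold change 0.76 ± 0.51). The Ng2_rFP call was lost without any 1 of Ng2_rFP replicates 1, 2 and 4 or Lepr replicates 1 to 4. It was also lost with a pseudocount of 0.1, with no filter and with the replicate number as a block (limma adjusted p = 0.054 with the block). Adamtsl1, which has no protease domain, was 7.62, 12.9, 9.37 and 6.51 FPKM in Col23_GFP, 7.34, 3.69, 6.94 and 7.0 FPKM in Ng2_rFP and between 0.257 and 0.813 FPKM with a median of 0.57 FPKM in Lepr (log2 fold change 2.64 ± 0.21 and 2.16 ± 0.21). Chondrocyte genes moved with these differences, with summed levels of 1705 to 2125 FPKM in Col23_GFP, 2467 to 3126 FPKM in Ng2_rFP and 10.1 to 14.9 FPKM in Lepr. Of 11 osteoblast genes tested, 9 were called higher and 2 lower in Col23_GFP, and 10 higher and 0 lower in Ng2_rFP. Their sums were 19853 to 32958 FPKM in Col23_GFP, 46646 to 53354 FPKM in Ng2_rFP and 9892 to 13095 FPKM in Lepr.

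Other cell type genes moved with the same differences. Genes of Lepr adipogenic stroma were called lower for 10 of 10 tested in both, with sums of 846 to 1867 FPKM in Col23_GFP, 905 to 1083 FPKM in Ng2_rFP and 18122 to 24217 FPKM in Lepr. Tendon and periosteal genes were called higher for 7 of 8 tested in both, with 0 lower in Col23_GFP and 1 lower in Ng2_rFP. Their sums were 4679 to 7899 FPKM in Col23_GFP, 3407 to 3573 FPKM in Ng2_rFP and 314 to 518 FPKM in Lepr. Pericyte and smooth muscle genes, among them Cspg4, which encodes NG2, were called higher for 7 of 8 and lower for 1 in both. Their sums were 261 to 404 FPKM in Col23_GFP, 716 to 906 FPKM in Ng2_rFP and 13.8 to 17.4 FPKM in Lepr. Skeletal muscle genes were called higher for 6 of 6 in Col23_GFP, and Schwann cell genes for 5 of 6 in Ng2_rFP, with sums of 251 to 299 FPKM in Ng2_rFP and 43.7 to 61 FPKM in Lepr. Neutrophil genes were called lower for 11 of 12 in Col23_GFP, with sums of 1494 to 10944 FPKM in Col23_GFP and 12005 to 20243 FPKM in Lepr. Of 6 osteoclast genes tested, 4 were called higher and 0 lower in Col23_GFP and 1 higher and 0 lower in Ng2_rFP. The sum over 10 osteoclast genes was 1520.3 to 2122 FPKM in Col23_GFP, 231 to 289.6 FPKM in Ng2_rFP and 141 to 382 FPKM in Lepr, with 4 of 10 at a mean of 1 FPKM or more in each. Calcr was listed at 0 in all libraries of Col23_GFP and Lepr, and Dcstamp in all libraries of Ng2_rFP. The part of these cell types in the protease differences was not tested.

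5 ADAMTS proteases were highest in endothelial Pecam_GFP cells. Adamts5, the main aggrecanase of mouse cartilage (ENSMUSG00000022894, chromosome 16, 85856173 to 85901828, minus strand), was at 119, 107, 81.8 and 72.9 FPKM in Pecam_GFP and between 3.34 and 5.74 FPKM with a median of 4.75 FPKM in Lepr (log2 fold change 4.07 ± 0.29, limma adjusted p = 1.58e-14). Adamts1 was at 169, 168, 126 and 116 FPKM in Pecam_GFP, a log2 fold change of 1.01 ± 0.26. Adamts9 was at 43.9, 43.7, 35.3 and 38.3 FPKM in Pecam_GFP and between 10.6 and 15.6 FPKM with a median of 13.2 FPKM in Lepr (log2 fold change 1.54 ± 0.12). Adamts4, another aggrecanase, was at 30.1, 26, 16.3 and 27.2 FPKM in Pecam_GFP and between 2.77 and 4.59 FPKM with a median of 4.25 FPKM in Lepr (log2 fold change 2.38 ± 0.24). Adamts7, which cuts cartilage oligomeric matrix protein, was at 6.68, 8.18, 5.08 and 5.84 FPKM in Pecam_GFP and between 0.378 and 1.36 FPKM with a median of 0.708 FPKM in Lepr (log2 fold change 2.04 ± 0.20). Each of these 5 and Timp3 (log2 fold change 3.22 ± 0.51) had its lowest Pecam_GFP library above the highest library of any other population. Adamts15, another aggrecanase, went the other way, averaging 0.0815 ± 0.0908 FPKM (n = 4) in Pecam_GFP and 1.13 ± 0.298 FPKM (n = 6) in Lepr (log2 fold change -0.97 ± 0.22).

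Pecam_GFP cells were lower than Lepr cells for several MMPs, for other ADAMTS genes and for the other 3 inhibitors. Log2 fold changes were -5.68 ± 0.27 for Mmp23, -4.35 ± 0.27 for Mmp13, -4.80 ± 0.26 for Adamts2, -3.27 ± 0.29 for Mmp11, -2.27 ± 0.18 for Adamtsl3, -2.25 ± 0.18 for Adamts14 and -2.10 ± 0.22 for Mmp2. They were -4.63 ± 0.21 for Timp4, -3.22 ± 0.17 for Timp2 and -2.91 ± 0.36 for Timp1, all called, with no overlap between the groups. Mmp14 did not pass the test, at 40.5, 39.6, 21.1 and 30.9 FPKM in Pecam_GFP and between 27.1 and 44.7 FPKM with a median of 33.2 FPKM in Lepr (log2 fold change -0.10 ± 0.22, limma adjusted p = 0.763). Genes on the other strand overlap Adamts4, Adamts7 and Adamts9, and among others also Adamts2, Mmp16, Timp1 and Timp4. The use of strand in the counting is not given, so the levels of these genes are uncertain. Syn1 (beside Timp1) and Syn2 (beside Timp4) had niche group means of at most 1.055 FPKM and 1.8 FPKM, Syn2 in Pecam_GFP. Another gene over Timp4, and the partners of the ADAMTS genes and Mmp16, were not read. Annotated genes on the same strand overlap Timp2, Adamtsl1, Adamtsl3 and Adamts17, where strand would not tell the reads apart. Endothelial genes were called higher in Pecam_GFP for 10 of 10 tested. Genes of Lepr adipogenic stroma were called lower for 10 of 10, with sums of 389.8 to 596 FPKM in Pecam_GFP and 18122 to 24217 FPKM in Lepr. Osteoblast genes were called lower for 8 of 11, with sums of 150.4 to 412 FPKM in Pecam_GFP and 9892 to 13095 FPKM in Lepr. Their part in the protease differences was not tested.

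**Figure D2:**
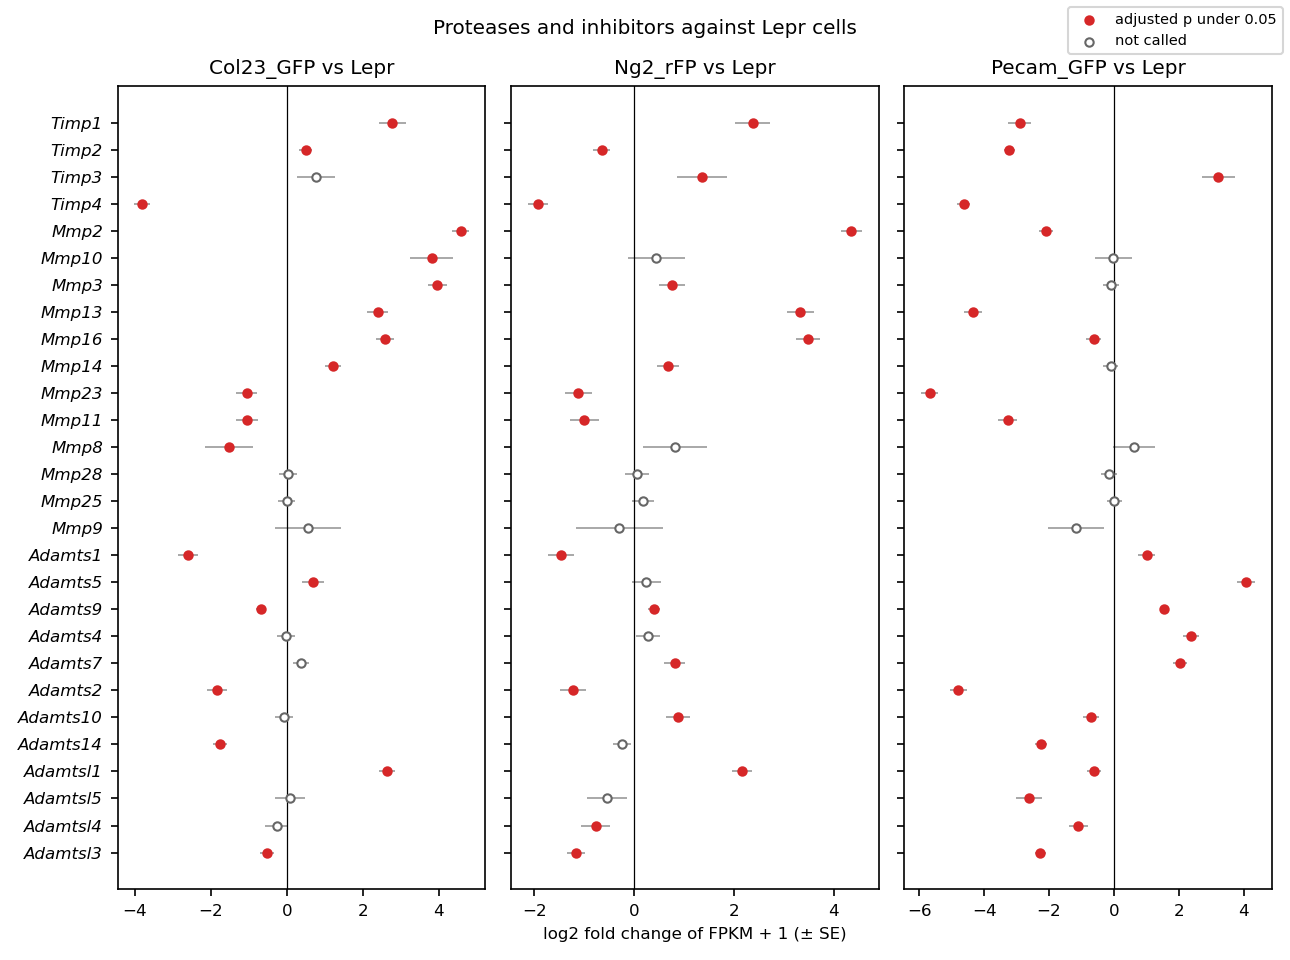
Log2 fold change of FPKM + 1 with its standard error for the 28 genes of at least 5 FPKM, in Col23_GFP, Ng2_rFP and Pecam_GFP, each against the same 6 Lepr libraries; filled points were called at an adjusted p under 0.05. Mmp2, Mmp13 and Timp1 lie right of 0 in the first pair of panels and left of 0 in Pecam_GFP, where Adamts5 reaches a log2 fold change of 4.07.

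N-cadherin reporter cells were compared between bone and marrow to ask how their location relates to expression. In homeostasis 13 of 40 tested genes were called, 9 higher and 4 lower in Ncad_bone, where 24.6% of all genes were called (14.7% higher and 9.95% lower) and the median log2 fold change was 0.24 over these genes and 0 over all genes. The count was 8 without Ncad_bone replicate 2 or without Ncad_marrow replicate 3, and 6 without Ncad_bone replicates 1 and 2, the libraries with the highest chondrocyte sums. Mmp2 was at 136, 154, 119 and 105 FPKM in Ncad_bone and 14.4, 10.7, 16.8 and 18.1 FPKM in Ncad_marrow (log2 fold change 3.03 ± 0.24 (SE), limma adjusted p = 1.87e-12), and the libraries lay far apart. Mmp3 was at 7.24, 5.78, 7.0 and 8.46 FPKM in Ncad_bone and 0.479, 0.244, 0.431 and 0.521 FPKM in Ncad_marrow (log2 fold change 2.51 ± 0.28 (SE), limma adjusted p = 1.01e-08). Timp3 was at 75, 80.9, 31.1 and 26.8 FPKM in Ncad_bone and 2.72, 6.02, 4.33 and 6.23 FPKM in Ncad_marrow (log2 fold change 3.11 ± 0.55 (SE), limma adjusted p = 5.68e-05), while Syn3 averaged 34.1 FPKM in Ncad_bone and 6.82 FPKM in Ncad_marrow. These 3 remained called without Ncad_bone replicates 1 and 2, at log2 fold changes of 2.84, 2.62 and 2.41.

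Other bone-side differences rested more on replicates 1 and 2. Adamts2 was at 332, 358, 132 and 97.2 FPKM in Ncad_bone and 96.2, 47.3, 53.6 and 64.3 FPKM in Ncad_marrow (log2 fold change 1.64 ± 0.29), and its value without those libraries was 0.84, still called (limma adjusted p = 0.0336). Mmp14 was at 175, 177, 80.3 and 78.1 FPKM in Ncad_bone and 64.8, 40.3, 40.5 and 53.9 FPKM in Ncad_marrow (log2 fold change 1.26 ± 0.24), and without those libraries it was not called (0.69, limma adjusted p = 0.0662). Adamts1 was at 80.3, 92.4, 33.2 and 22.9 FPKM in Ncad_bone and 24.9, 25.4, 27 and 32.4 FPKM in Ncad_marrow, where the groups overlapped (log2 fold change 0.82 ± 0.28), and its value was 0.02 without them. Its call was also lost without Ncad_bone replicate 1 or 2 or Ncad_marrow replicate 1, 2 or 3, each left out alone. It was lost too with a pseudocount of 0.1, with no filter or in a fit of just the 2 groups. Timp2 was at 421, 413, 389.6 and 388 FPKM in Ncad_bone and 279, 251, 294 and 292 FPKM in Ncad_marrow, which did not overlap, and its call (log2 fold change 0.53 ± 0.19) was lost in 11 of 15 alternatives (highest limma adjusted p = 0.208). In the other direction, Adamts9 was at 9.05, 14.4, 10.3 and 11.8 FPKM in Ncad_bone and 23, 27.4, 24.4 and 19.96 FPKM in Ncad_marrow (log2 fold change -1.004 ± 0.13 (SE), limma adjusted p = 4.86e-07), and stayed called without them. Timp1 did not pass the test, with 190.2, 145, 112 and 173 FPKM in Ncad_bone and 59.7, 89.8, 88 and 75.5 FPKM in Ncad_marrow (log2 fold change 0.97 ± 0.39, limma adjusted p = 0.0668), although the groups did not overlap. Timp4 did not pass it either, at 34.8, 56.5, 45.7 and 44.3 FPKM in Ncad_bone and 44.9, 43.5, 48 and 41.5 FPKM in Ncad_marrow. Other cell type genes moved with these differences. Tendon and periosteal genes were called higher in Ncad_bone for 7 of 8 tested, with sums of 3354 to 4446 FPKM in Ncad_bone and 388 to 517 FPKM in Ncad_marrow. Chondrocyte genes were called higher for 10 of 11. Osteoblast genes were called higher for 5 of 11, with sums of 10805 to 11931 FPKM in Ncad_bone and 7209 to 8809 FPKM in Ncad_marrow. Pericyte and smooth muscle genes were called higher for 7 of 8, with sums of 104 to 276 FPKM in Ncad_bone and 22.6 to 27.1 FPKM in Ncad_marrow. Neutrophil genes were called higher for 7 of 12, with sums of 1569.7 to 10974 FPKM in Ncad_bone and 373 to 8314 FPKM in Ncad_marrow. Genes of Lepr adipogenic stroma had 2 higher and 2 lower of 10, with sums of 20354 to 25979.6 FPKM in Ncad_bone and 24607 to 29291 FPKM in Ncad_marrow. Their part in the protease differences was not tested.

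After 5FU the collagenase gene Mmp13 separated the 2 locations. It was at 475, 515 and 494 FPKM in 5Fu_Ncad_bone and 28.1, 31.3 and 32.5 FPKM in 5Fu_Ncad_marrow (log2 fold change 3.97 ± 0.10 (SE), limma adjusted p = 7.94e-06), with libraries far apart. In homeostasis Mmp13 was at 222, 259, 84.1 and 104 FPKM in Ncad_bone and 94.1, 111, 87.4 and 120.2 FPKM in Ncad_marrow, where the groups overlapped and the test was not passed (log2 fold change 0.55 ± 0.30, limma adjusted p = 0.19). In all, 13 of 28 tested genes were called after 5FU, 6 higher and 7 lower in 5Fu_Ncad_bone, where 22.9% of all genes were called (12.5% higher and 10.4% lower), and the median log2 fold change was -0.31 over these genes and 0.005 over all genes. Of these genes 8 were called without 5Fu_Ncad_bone replicate 2.

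Mmp16 was at 12.6, 15.1 and 12 FPKM in 5Fu_Ncad_bone and 2.12, 1.06 and 0.646 FPKM in 5Fu_Ncad_marrow (log2 fold change 2.69 ± 0.26 (SE), limma adjusted p = 0.00102). Mmp2 was at 266, 249 and 238 FPKM in 5Fu_Ncad_bone and 90.8, 134 and 118 FPKM in 5Fu_Ncad_marrow (log2 fold change 1.15 ± 0.16). Timp1 was at 315, 356 and 286 FPKM in 5Fu_Ncad_bone and 178, 188 and 236 FPKM in 5Fu_Ncad_marrow (log2 fold change 0.67 ± 0.14), and Timp3 at 30.8, 43.3 and 46.4 FPKM in 5Fu_Ncad_bone and 15.8, 21.4 and 22.6 FPKM in 5Fu_Ncad_marrow (log2 fold change 0.97 ± 0.21). Syn3, on the other strand of Timp3, averaged 38.2 FPKM in 5Fu_Ncad_bone and 32.7 FPKM in 5Fu_Ncad_marrow. Adamts17, a gene of a human syndrome like Weill-Marchesani, averaged 3.63 ± 1.65 FPKM (n = 3) in 5Fu_Ncad_bone and 0.539 ± 0.164 FPKM (n = 3) in 5Fu_Ncad_marrow and was the remaining gene called higher. The collagenase, a gelatinase and a membrane-type MMP were thus higher in bone together with Timp1 and Timp3.

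The genes called lower in 5Fu_Ncad_bone were an inhibitor, an MMP, 4 ADAMTS proteases and an ADAMTSL gene. Timp4 was at 5.34, 7.02 and 6.65 FPKM in 5Fu_Ncad_bone and 25.6, 22.3 and 18.9 FPKM in 5Fu_Ncad_marrow (log2 fold change -1.66 ± 0.17 (SE), limma adjusted p = 0.00124). Adamts5 was at 16.3, 15.9 and 22.7 FPKM in 5Fu_Ncad_bone and 52.2, 41.5 and 50.9 FPKM in 5Fu_Ncad_marrow (log2 fold change -1.36 ± 0.18), and Adamts9 at 22.4, 19.1 and 29.1 FPKM in 5Fu_Ncad_bone and 45.3, 42.8 and 40.8 FPKM in 5Fu_Ncad_marrow (log2 fold change -0.86 ± 0.17). Adamts2 was at 21, 21.7 and 23 FPKM in 5Fu_Ncad_bone and 35.1, 34.1 and 33.5 FPKM in 5Fu_Ncad_marrow (log2 fold change -0.62 ± 0.11), so the aggrecanase, the versican-cutting protease and the procollagen N-proteinase were all lower in bone. Adamtsl3 was at 4.73, 3.83 and 4.33 FPKM in 5Fu_Ncad_bone and 13.7, 15.8 and 11.7 FPKM in 5Fu_Ncad_marrow (log2 fold change -1.47 ± 0.17). Mmp11 and Adamts14 were called lower too, with log2 fold changes of -0.59 ± 0.12 and -1.004 ± 0.21. For all 13 called genes the libraries of the 2 locations did not overlap. The share without overlap over all genes was not counted. Leaving out 1 library ended the call of Timp1 (5Fu_Ncad_bone replicate 1 or 2, 5Fu_Ncad_marrow replicate 2), Timp3 and Adamts14 (5Fu_Ncad_bone replicate 2 or 3), Adamts9 (5Fu_Ncad_bone replicate 1) and Mmp11 (5Fu_Ncad_bone replicate 2 or 3, 5Fu_Ncad_marrow replicate 2 or 3). With the replicate number as a block Timp1 and Mmp11 were not called (limma adjusted p = 0.0595 and 0.0601), and with no filter Adamts14 and Adamts17 were not (limma adjusted p = 0.0595 and 0.0626).

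The difference between bone and marrow was itself compared between 5FU and homeostasis by an interaction term, since the tables may have been normalized separately. A gene's constant fold offset cancels there where its levels are well above the added 1 FPKM. For genes near or below 1 FPKM in a group, such as Mmp3 and Mmp16, it cancels only in part. It was called for 10 of 32 tested genes, 2 higher and 8 lower, where 18.9% of all genes were called (8.23% higher and 10.6% lower) and the median was -0.41 over these genes and -0.02 over all genes. The bone-over-marrow difference was larger after 5FU for Mmp13, by 3.42 ± 0.44 on the log2 scale (limma adjusted p = 0.0002), and for Mmp16, by 2.23 ± 0.52. It was smaller or turned to marrow for Adamts2 (log2 fold change -2.26 ± 0.55), Timp3 (log2 fold change -2.14 ± 0.53), Mmp2 (log2 fold change -1.88 ± 0.26), Timp4 (log2 fold change -1.67 ± 0.22), Mmp3 (log2 fold change -1.47 ± 0.36), Adamtsl3 (log2 fold change -1.16 ± 0.22), Adamtsl5 (log2 fold change -0.998 ± 0.31) and Timp2 (log2 fold change -0.64 ± 0.13). All 10 stayed called without Ncad_bone replicates 1 and 2, with Mmp13 at 4.10 and Adamts2 at -1.46. Leaving out 1 library at a time, Adamtsl5 lost its call in most of these fits, with the highest limma adjusted p of 0.101 without 5Fu_Ncad_marrow replicate 3, and the other 9 kept theirs. With a pseudocount of 0.1 the calls of Mmp3 (-0.50, limma adjusted p = 0.701) and Mmp16 (2.89, limma adjusted p = 0.0603) were lost, and with no filter that of Adamtsl5 (limma adjusted p = 0.0614).

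Cell type genes moved with these differences. Of 10 chondrocyte genes tested 7 were called lower in the interaction. The chondrocyte sum was 71.7 to 82.3 FPKM in 5Fu_Ncad_bone and 447 to 1647 FPKM in Ncad_bone. These sums come from tables that may have been normalized separately, so their difference is not a measure of 5FU. Osteoblast genes were called higher in 5Fu_Ncad_bone than in 5Fu_Ncad_marrow for 9 of 11 tested, with sums of 13425 to 16202 FPKM in 5Fu_Ncad_bone and 3772 to 4487 FPKM in 5Fu_Ncad_marrow, and 3 higher and 1 lower of 11 passed the interaction test. Tendon and periosteal genes were called higher in 5Fu_Ncad_bone for 6 of 8, with sums of 2529 to 2727 FPKM in 5Fu_Ncad_bone and 188 to 286 FPKM in 5Fu_Ncad_marrow. Genes of Lepr adipogenic stroma were called lower in 5Fu_Ncad_bone for 10 of 10 tested, with a median log2 fold change of -1.59 and sums of 4107 to 4348 FPKM in 5Fu_Ncad_bone and 12942 to 16333 FPKM in 5Fu_Ncad_marrow. In all, 9 of 10 were called lower in the interaction. Pericyte and smooth muscle genes had 2 higher and 1 lower of 5 tested in 5Fu_Ncad_bone, with sums of 1985 to 2372 FPKM in 5Fu_Ncad_bone and 1387 to 1754 FPKM in 5Fu_Ncad_marrow, and 6 of 7 were called lower in the interaction. The part of these cell type genes in the protease differences was not tested.

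**Figure D3:**
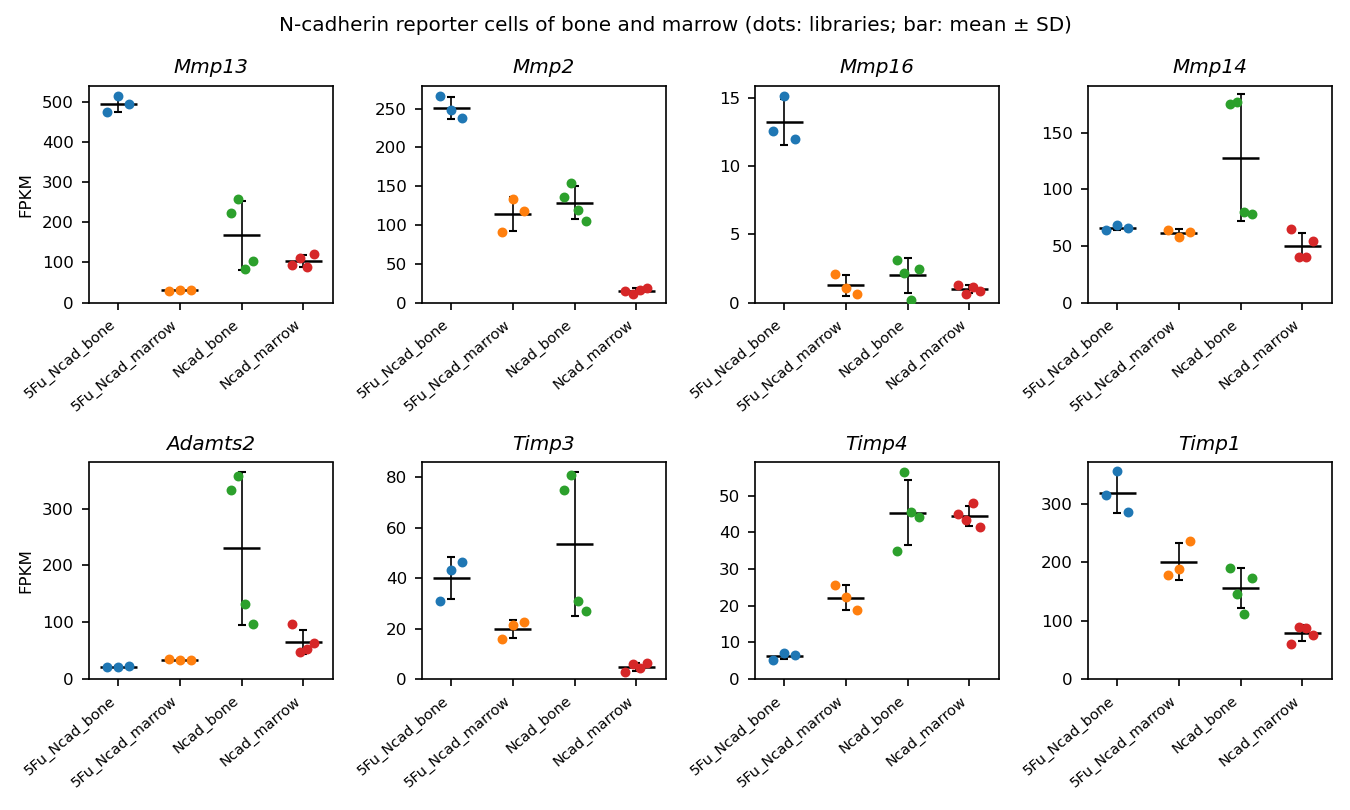
FPKM of 8 genes in each library of N-cadherin reporter cells after 5FU (5Fu_Ncad_bone and 5Fu_Ncad_marrow, n = 3 each) and in homeostasis (Ncad_bone and Ncad_marrow, n = 4 each), with the mean as a bar and the SD as whiskers. Mmp13 lies between 475 and 515 FPKM in 5Fu_Ncad_bone and at or under 32.5 FPKM in 5Fu_Ncad_marrow, and Ncad_bone splits into a high and a low pair for Mmp13, Mmp14, Adamts2 and Timp3.

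Blood cells of the niche set held a different group of proteases. Mmp8 and Mmp9, gelatinase B, are stored in neutrophil granules, and MMP9 is also known from osteoclasts. Mmp8 (ENSMUSG00000005800, chromosome 9, 7558456 to 7568485, plus strand) was at 151, 166, 179.6 and 198 FPKM in Mac and 41.2, 35.5, 304 and 308 FPKM in MK. Mmp9 (ENSMUSG00000017737, chromosome 2, 164940780 to 164955850, plus strand) was at 208, 311, 247 and 284 FPKM in Mac and 67.3, 68.2, 501 and 512 FPKM in MK. MK replicates 3 and 4 stood above Mac for both genes and MK replicates 1 and 2 below, and MK replicates 3 and 4 also had higher neutrophil sums than MK replicates 1 and 2. Against Mac the order was not the same. The Mac sums, 393664 to 571905 FPKM, were above those of MK replicates 3 and 4, at 380663 and 324392 FPKM. Neither gene passed the test of Mac against MK (log2 fold changes 0.66 ± 0.70 and 0.48 ± 0.95). Of 40 tested genes 11 were called in that comparison, 2 higher and 9 lower in Mac, where 31.9% of all genes were called (8.75% higher and 23.2% lower) and the median log2 fold change was -0.11 over these genes and -0.12 over all genes.

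The genes called higher in Mac were both MMPs. Mmp25, a membrane MMP of neutrophils, was at 4.55, 6.7, 5.51 and 5.05 FPKM in Mac and 0.351, 0.122, 2.23 and 3.85 FPKM in MK (log2 fold change 1.54 ± 0.24 (SE), limma adjusted p = 5.66e-06). Mmp28, epilysin, was at 8.63, 12.3, 7.57 and 7.75 FPKM in Mac and 2.95, 2.22, 5.45 and 6.01 FPKM in MK (log2 fold change 1.02 ± 0.27 (SE), limma adjusted p = 0.00289), beside 1700020L24Rik on the other strand at means of 26.3 FPKM in Mac and 8.16 FPKM in MK. Among the 9 lower ones, Timp2 was at 14, 13.7, 18.5 and 8.44 FPKM in Mac and 40.8, 43.8, 39.3 and 41 FPKM in MK (log2 fold change -1.57 ± 0.19 (SE), limma adjusted p = 5.42e-08). Timp3 was at 0.025, 0, 0.328 and 0.109 FPKM in Mac and 25.5, 27.9, 0.318 and 2.46 FPKM in MK (log2 fold change -2.79 ± 0.55), high only in MK replicates 1 and 2. Without MK replicates 3 and 4, 15 genes were called, Mmp25 stood at 2.38 and Timp3 at -4.64. In a fit of just Mac and MK, Timp3 was not called (limma adjusted p = 0.0536). Neutrophil genes were called higher in Mac for 4 of 12 and megakaryocyte genes lower for 10 of 10, with sums of 14.9 to 40.8 FPKM in Mac and 6009.8 to 38225 FPKM in MK. Genes of other cells were called lower in Mac as well. Endothelial genes were so for 10 of 10, with sums of 6.59 to 8.88 FPKM in Mac and 21.9 to 132 FPKM in MK. B cell genes were for 7 of 7, with sums of 9.72 to 25.7 FPKM in Mac and 178 to 1101 FPKM in MK, and Lepr adipogenic stroma genes for 7 of 10, with sums of 32 to 35.6 FPKM in Mac and 64.4 to 369.7 FPKM in MK. T and NK cell genes were called lower for 6 of 8, erythroid genes for 6 of 8, macrophage genes for 6 of 10 with 1 higher, and osteoclast genes for 4 of 6. The part of these cell types in the differences was not tested.

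Mmp9 varied widely inside stromal groups, and in Lepr and Ncad_bone its order was not that of the neutrophil genes. In Lepr it was at 164, 159 and 162 FPKM in replicates 2, 5 and 6, against 6.41, 6.85 and 5.2 FPKM in replicates 1, 3 and 4. The neutrophil sums of these libraries were 14368, 12005 and 12484 FPKM in replicates 2, 5 and 6. In replicates 1, 3 and 4 they were 20243, 13614 and 19617 FPKM, and the ranges overlapped. In Ncad_bone, Mmp9 was at 5.92, 158, 9.59 and 85.2 FPKM, and replicate 2, the highest, had the lowest neutrophil sum of its group (1569.7 FPKM). In Col23_GFP, Mmp9 was at 43.1, 175, 21.1 and 36.7 FPKM, and replicate 2, the highest, had the highest neutrophil sum (10944 FPKM). The sum over 10 osteoclast genes was 1520.3 to 2122 FPKM in Col23_GFP, 65.3 to 121 FPKM in Ncad_bone and 141 to 382 FPKM in Lepr, with 4, 3 and 4 of 10 at a mean of 1 FPKM or more. Calcr was listed at 0 in all libraries of the 3 groups. The part of neutrophil genes or of osteoclast genes in the spread of Mmp9 was not tested. Mmp9 did not pass the test in Col23_GFP, Ng2_rFP or Pecam_GFP against Lepr or in Ncad_bone against Ncad_marrow, with limma adjusted p of 0.642, 0.856, 0.303 and 0.181.

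**Figure D4:**
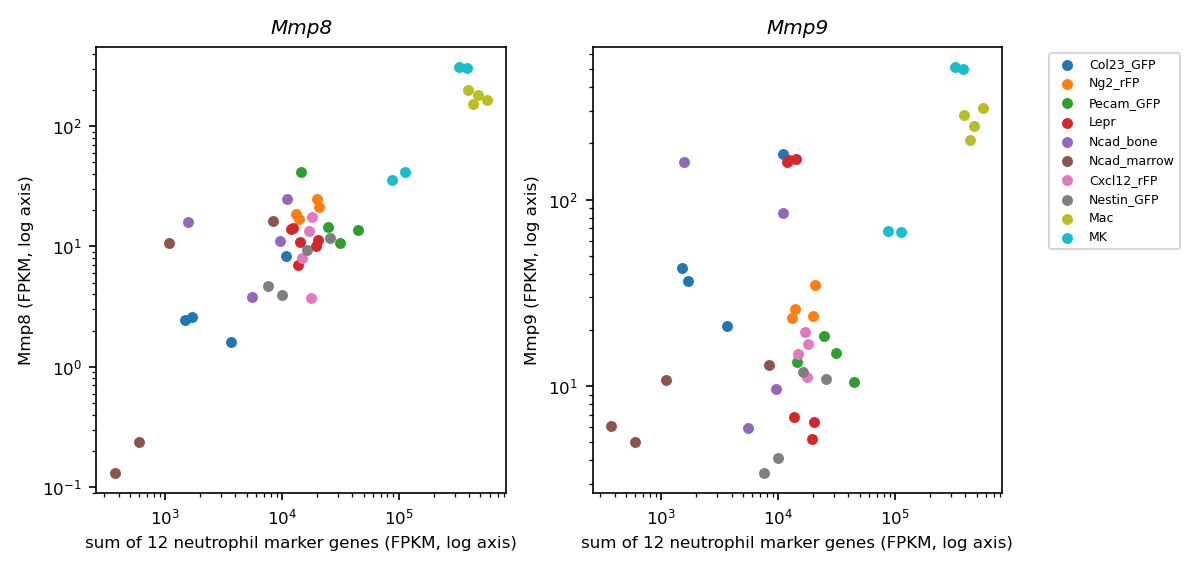
FPKM of Mmp8 and Mmp9 in each niche library against the sum of 12 neutrophil marker genes in the same library, both on log axes, coloured by population. Mac and MK replicates 3 and 4 lie at the upper right of both panels, while 3 Lepr libraries lie between 159 and 164 FPKM of Mmp9 at neutrophil sums like those of the other 3.

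In HSPCs few of these genes were expressed. Of 51 genes, 16 reached a mean of 1 FPKM in a group and 6 reached 5 FPKM (Mmp2, Mmp8, Mmp9, Mmp11, Timp2 and Adamts10), and 17 were tested. The 4 comparisons below share the Reserve libraries. In 5FuReserve, 6 of 17 were called, 4 higher and 2 lower, where 48.3% of all genes were called (25.5% higher and 22.8% lower) and the median log2 fold change was -0.43 over these genes and -0.03 over all genes, so the share of these genes was not above the background. In MPP, 10 of 17 were called, 1 higher and 9 lower, where 41.0% of all genes were called (12.7% higher and 28.3% lower) and the median log2 fold change was -0.54 over these genes and -0.20 over all genes. In ST, 4 of 17 were called, all lower, where 12.7% of all genes were called (6.52% higher and 6.21% lower) and the median was -0.52 over these genes and -0.02 over all genes. In Primed, 1 of 17 was called, and it was lower, where 3.87% of all genes were called (1.61% higher and 2.26% lower) and the median was -0.16 over these genes and 0 over all genes. That count is near the background.

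On day 3 after 5FU, cells of the reserve gate had more Mmp8, Mmp9 and Timp2. Mmp8 was at 33, 38.5 and 46.3 FPKM in 5FuReserve and 5.93, 5.76, 4.15 and 4.25 FPKM in Reserve (log2 fold change 2.74 ± 0.47 (SE), limma adjusted p = 0.000248). Mmp9 was at 21.9, 31.2 and 24.4 FPKM in 5FuReserve and 1.99, 7.15, 5.37 and 5.12 FPKM in Reserve (log2 fold change 2.26 ± 0.49 (SE), limma adjusted p = 0.00169). Timp2 was at 28, 26.9 and 21.9 FPKM in 5FuReserve and 12.6, 15.7, 13.7 and 14.9 FPKM in Reserve (log2 fold change 0.80 ± 0.17 (SE), limma adjusted p = 0.00119), and the groups overlapped for none of the 3. Timp1 was at 1.94, 1.81 and 5.31 FPKM in 5FuReserve, while 3 of 4 Reserve libraries listed it at 0 (log2 fold change 1.67 ± 0.37). Mmp28 was at 1.49, 1.44 and 0.92 FPKM in 5FuReserve and 6.77, 4.23, 2.61 and 3.15 FPKM in Reserve (log2 fold change -1.13 ± 0.26). Mmp14 was at 1.94, 0.519 and 1.26 FPKM in 5FuReserve and 4.39, 1.75, 4.69 and 4.72 FPKM in Reserve (log2 fold change -1.12 ± 0.30). Of the 6 called genes, Mmp14 was the one whose groups overlapped. Overlap was not counted over all genes.

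Markers of mature blood cells moved with these differences. The sum over 12 neutrophil genes was 8355 to 10605 FPKM in 5FuReserve and 1938 to 5252 FPKM in Reserve, with 3 genes called higher and 5 lower. S100a9 and Retnlg, genes of mature neutrophils, were higher (log2 fold changes 3.02 ± 0.63 and 5.53 ± 1.09), while Elane and Mpo, genes of early granule formation, were lower (log2 fold change -7.49 ± 1.30 and -5.10 ± 0.77). Macrophage genes were higher for 7 of 8 tested, with sums of 118 to 140.2 FPKM in 5FuReserve and 20.2 to 28.6 FPKM in Reserve, and all 7 B cell genes and all 8 T and NK cell genes were higher. The part of these cell types in the levels of Mmp8, Mmp9 and Timp2 was not tested.

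Each called gene of MPP, ST and Primed was lower than in Reserve, with Mmp11 in MPP as the exception. Adamtsl5 was at 0.374, 0.283, 0.091 and 0 FPKM in MPP, 1.29, 1.51 and 0.669 FPKM in ST, 2.21, 2.21 and 1.97 FPKM in Primed and 5.34, 6.37, 3.9 and 2.87 FPKM in Reserve. Its log2 fold changes were -2.21 ± 0.20 in MPP and -1.36 ± 0.22 in ST and, not called, -0.80 ± 0.22 in Primed (limma adjusted p = 0.0553). Mmp16 was at 0.078, 0.184, 0.259 and 0.080 FPKM in MPP, 0.163, 0.266 and 0.13 FPKM in ST, 0.428, 0.438 and 0.553 FPKM in Primed and 2.34, 1.43, 2.25 and 2.06 FPKM in Reserve (log2 fold change -1.38 ± 0.24, -1.34 ± 0.26 and -1.03 ± 0.26), without overlap with Reserve. This was the gene called in Primed, and the call was lost when Reserve replicate 1, 3 or 4 or any Primed replicate was left out. It was also lost with a pseudocount of 0.1, with no filter and with the replicate number as a block (limma adjusted p = 0.0658 with the block). Mmp14 was at 0.126, 0.199, 0.198 and 0.243 FPKM in MPP, 2.59, 1.11 and 0.711 FPKM in ST and 4.39, 1.75, 4.69 and 4.72 FPKM in Reserve (log2 fold change -1.98 ± 0.28 and -0.996 ± 0.30), and ST overlapped with Reserve. Without Reserve replicates 1, 3 or 4 or ST replicates 2 or 3, each left out in turn, the count in ST was 2 and Mmp14 was not called. Mmp14 was not called either with a pseudocount of 0.1, with no filter, with the replicate number as a block (limma adjusted p = 0.067) or in a fit of just ST and Reserve.

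Timp2, the inhibitor with the highest level in Reserve, was at 4.67, 4.75, 4.5 and 7.99 FPKM in MPP and 12.6, 15.7, 13.7 and 14.9 FPKM in Reserve (log2 fold change -1.26 ± 0.15 (SE), limma adjusted p = 1.66e-05), with no overlap. Mmp8 was at 1.91, 2.12, 1.92 and 0.862 FPKM in MPP and 5.93, 5.76, 4.15 and 4.25 FPKM in Reserve, with no overlap (log2 fold change -1.17 ± 0.44 (SE), limma adjusted p = 0.0441). Its call was lost in 12 of 14 alternatives (highest limma adjusted p = 0.169). Mmp28 was lower in MPP as well (log2 fold change -1.14 ± 0.24). Mmp11 was the gene called higher in MPP, at 15.2, 15.1, 20.3 and 8.56 FPKM in MPP and 1.48, 10.9, 5.82 and 7.08 FPKM in Reserve, where the groups overlapped (log2 fold change 1.26 ± 0.43 (SE), limma adjusted p = 0.0312). Its partner on the other strand, Chchd10, averaged 20.4 FPKM in MPP and 25.9 FPKM in Reserve, and the reads of the pair cannot be told apart. The call of Mmp11 was lost without Reserve replicate 1 or 3 or MPP replicate 1, 2 or 3, with no filter, and in a fit of just MPP and Reserve. The count in MPP was 6 without Reserve replicate 1 or MPP replicate 2, and 5 without Reserve replicate 3 or MPP replicate 1. Adamts10 was the highest ADAMTS gene of HSPCs, with means from 13.4 FPKM in 5FuReserve to 19.2 FPKM in Primed, and was not called in any of the 4 comparisons.

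**Figure D5:**
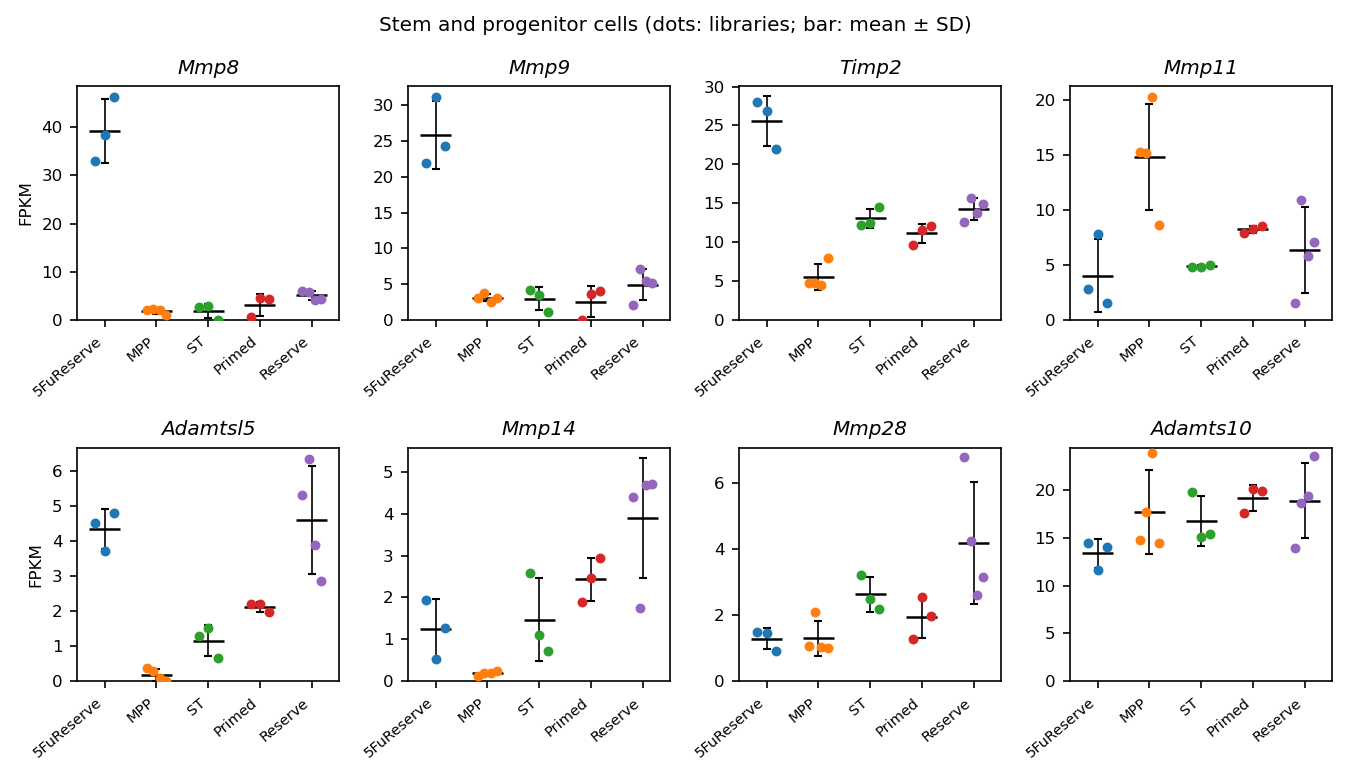
FPKM of 8 genes in each HSPC library, with the mean as a bar and the SD as whiskers, for 5FuReserve (n = 3), MPP (n = 4), ST (n = 3), Primed (n = 3) and Reserve (n = 4). Mmp8, Mmp9 and Timp2 are highest in the 3 libraries of 5FuReserve, and Adamtsl5 and Mmp14 are lowest in MPP.

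Other genes of matrix turnover were read from lists of 6 kinds. Between Ncad_bone and Ncad_marrow, the plasminogen activators and their serpins had 3 higher and 0 lower of 8 tested, median log2 fold change 0.84. Procollagen-processing genes had 6 higher and 0 lower of 10 tested, median log2 fold change 0.72. ADAM sheddases had 5 higher and 3 lower of 11 tested, median log2 fold change 0.64, and lecticans and other substrates of the ADAMTS enzymes 5 higher and 0 lower of 7 tested, median log2 fold change 1.58, where 24.6% of all genes were called and their median was 0. Plat, tissue plasminogen activator, averaged 37.1 ± 16.3 FPKM (n = 4) in Ncad_bone and 0.432 ± 0.362 FPKM (n = 4) in Ncad_marrow (log2 fold change 4.67 ± 0.28). Pcolce2, an enhancer of procollagen C-proteinase, averaged 49.4 ± 19 FPKM (n = 4) in Ncad_bone and 0.0437 ± 0.0443 FPKM (n = 4) in Ncad_marrow (log2 fold change 5.51 ± 0.20). Acan, which encodes aggrecan, averaged 18.9 ± 10.6 FPKM (n = 4) in Ncad_bone and was listed at 0 in Ncad_marrow. Comp, which encodes cartilage oligomeric matrix protein, averaged 868 ± 539 FPKM (n = 4) in Ncad_bone and 9.76 ± 5.93 FPKM (n = 4) in Ncad_marrow (log2 fold change 6.27 ± 0.35). Cathepsins and related proteases had 4 higher and 0 lower of 13 tested, median log2 fold change 0.23, and other metalloprotease regulators 5 higher and 0 lower of 7 tested, median log2 fold change 0.62.

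After 5FU the same lists gave, for bone against marrow, 3 higher and 2 lower of 6 tested, median log2 fold change 0.86 for plasminogen genes. They gave 4 higher and 2 lower of 10 tested, median log2 fold change 0.17 for procollagen processing and 0 higher and 3 lower of 9 tested, median log2 fold change -0.23 for the ADAM sheddases. The counts were 1 higher and 1 lower of 3 tested, median log2 fold change -0.01 for the substrates, 3 higher and 2 lower of 11 tested, median log2 fold change 0.05 for cathepsins and related proteases, and 0 higher and 1 lower of 5 tested, median log2 fold change -0.01 for the other regulators. Of all genes 22.9% were called in this comparison, and their median was 0.005. Plat was again higher in bone, at 13.9 ± 0.968 FPKM (n = 3) in 5Fu_Ncad_bone and 2.33 ± 0.885 FPKM (n = 3) in 5Fu_Ncad_marrow (log2 fold change 2.19 ± 0.22). Vcan, which encodes versican, a substrate of Adamts1, Adamts5 and Adamts9, was lower in bone, at 9.6 ± 3.62 FPKM (n = 3) in 5Fu_Ncad_bone and 33.4 ± 6.36 FPKM (n = 3) in 5Fu_Ncad_marrow (log2 fold change -1.74 ± 0.28). In homeostasis Vcan was higher in bone, at 6.82 ± 4.22 FPKM (n = 4) in Ncad_bone and 1.7 ± 0.531 FPKM (n = 4) in Ncad_marrow (log2 fold change 1.38 ± 0.44), and the interaction was -3.12 ± 0.56. Fap, a fibroblast protease, had an interaction of 1.01 ± 0.19 in the direction of Mmp13. Fap is on the list of cathepsins and related proteases. Of 12 tested genes of this list, 3 were called higher and 3 lower in the interaction, median 0.01. Of all genes, 18.9% were called in it, median -0.02.

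In Pecam_GFP against Lepr, the procollagen-processing list had 0 higher and 7 lower of 10 tested, median log2 fold change -2.60. Against the same Lepr libraries it had 5 higher and 1 lower of 10 tested, median log2 fold change 0.59 in Col23_GFP and 6 higher and 1 lower of 10 tested, median log2 fold change 0.60 in Ng2_rFP. The substrate list had 7 higher and 0 lower of 7 tested, median log2 fold change 2.41 in Col23_GFP and 6 higher and 0 lower of 7 tested, median log2 fold change 3.84 in Ng2_rFP. Acan, Comp and Hapln1 of this list are also on the chondrocyte list, and Cspg4 encodes NG2, after which the Ng2-RFP reporter is named, so its difference in Ng2_rFP goes with the sort. The aggrecanase genes Adamts4 and Adamts5 were highest in Pecam_GFP, where Acan was listed at 0. These lists and their genes were chosen with earlier results of the same data known.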

How the data were processed

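Cells were sorted by flow cytometry after enzymatic digestion of femur and tibia, and libraries were made with SMARTer ultra low input and Nextera kits, per the labels' protocols. The authors deposited FPKM values per gene in 3 tables, and the submitters' processing notes name bcl2fastq 2.18, TopHat2 2.0.13, Cufflinks 2.2.1 and mm10. How the tables were normalized to each other, whether counting used strand, and the read depth are not given in the sources used here. FPKM already divides by depth, so no counting error can be set on a value. A rough relative depth was estimated from the commonest ratio of small values between libraries, scaled to 1 in the lowest library of each table. It spanned 7.21-fold in niche cells, 6.17-fold in HSPCs and 2.73-fold in N-cadherin cells after 5FU. It was 1, 3.54 and 1.17 in 5FuReserve and 2.64 to 6.17 in Reserve. Pecam_GFP lay at 1 to 5.1 and Lepr at 2.55 to 6.39.

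Values were taken as log2(FPKM + 1) for genes of at least 1 FPKM in at least 3 libraries of a table, and fitted over all groups of that table with limma 3.58.1 in R 4.3.3 with an intensity trend. Genes with an adjusted p under 0.05 (Benjamini-Hochberg over all tested genes) were called. The interaction was fitted on the N-cadherin libraries of both tables joined by gene ID. The procedure was tested on simulated data. Statistics are given, in each direction, for up to 8 called genes with the smallest adjusted p among those that averaged 5 FPKM or more where they were higher, and genes shown beside them that did not pass are given by their values. In HSPCs, where 6 genes reached 5 FPKM, several other called genes of at least 1 FPKM were named after their values were seen. So were, in niche cells, a few further called genes that the rule leaves out, such as Adamts15, Adamts17, and Timp3 in Ng2_rFP. The genes and all lists were chosen with earlier results of these data known. Positions are from GENCODE M21 and promoters from RefSeq (GRCm38.p6). Alternatives were another pseudocount, filter, scaling and set of groups, the replicate block and leaving out libraries. No clear shared effect of equal replicate numbers was seen: correlations of deviations between equal numbers were between -0.10 and 0.15, and in no comparison were all over 0.1. Low correlations cannot show that equal numbers came from different animals.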

Additional observations from a re-analysis of the deposited data

Results flagged for a closer look

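The difference between bone and marrow differed between 5FU and homeostasis for 10 genes by the limma interaction test. On the log2 scale the interaction was 3.42 for Mmp13 (adjusted p = 0.0002) and 2.23 for Mmp16 (adjusted p = 0.0101). It was -1.67 for Timp4, -1.88 for Mmp2, -1.16 for Adamtsl3, -0.64 for Timp2, -2.26 for Adamts2, -1.47 for Mmp3, -2.14 for Timp3 and -0.998 for Adamtsl5 (limma adjusted p between 0.000268 and 0.0394). With a pseudocount of 0.1 the calls of Mmp3 (adjusted p = 0.701) and Mmp16 (adjusted p = 0.0603) were lost in the limma fit, and that of Adamtsl5 was lost in 11 of 20 alternatives (highest limma adjusted p = 0.101).

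In 9 of 166 levels examined (5.42%) a library lay far from the others of its group, where chance gives about 1 in 20. Lower libraries were Adamts1 in Col23_GFP replicate 3 (8.21 FPKM, others 11.5 to 11.7 FPKM), Adamtsl1 in Ng2_rFP replicate 2 (3.69 FPKM, others 6.94 to 7.34 FPKM), Adamtsl5 in Ncad_bone replicate 2 (12.5 FPKM, others 17.0 to 17.7 FPKM), Mmp14 in Ng2_rFP replicate 3 (48.3 FPKM, others 57.5 to 58.7 FPKM) and Mmp16 in Ng2_rFP replicate 4 (17.4 FPKM, others 19.3 to 19.7 FPKM). Higher libraries were Adamts2 in Lepr replicate 4 (108 FPKM, others 51.8 to 72.1 FPKM), Mmp8 in Pecam_GFP replicate 3 (41.8 FPKM, others 10.8 to 14.5 FPKM), Mmp9 in Col23_GFP replicate 2 (175 FPKM, others 21.1 to 43.1 FPKM) and Timp2 in MPP replicate 4 (7.99 FPKM, others 4.50 to 4.75 FPKM).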

How the results depend on the processing

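No value of a called gene changed its direction under any alternative run, and 1915 of these values stayed called while 248 did not. Group means moved by more than their SD in 8 cases, all under median-of-ratios scaling. Leaving out 1 library cannot move a mean by more than the SD of its group. For group means only the scaling could therefore show such a move, and the runs without a library are no test of it. The counts of called genes moved by over 1.5 times as follows, and beyond what follows from fewer genes or libraries tested the cause was not tested. With a mean FPKM of at least 5 as filter, fewer genes were tested, and counts were 0 in Primed and ST, 3 in MPP and in 5FuReserve, 7 in Ncad_bone against Ncad_marrow, 13 in Col23_GFP, 14 in Ng2_rFP, 16 in Pecam_GFP and 19 in the F test. With a pseudocount of 0.1 the counts were 0 in Primed, 2 in ST and 17 in Mac against MK. With no filter they were 0 in Primed, 2 in ST and 14 in 5FuReserve. With only the 2 compared groups in the fit they were 2 in ST and 5 in Mac against MK. Leaving out groups of libraries was chosen after seeing the data, and without Ncad_bone replicates 1 and 2 the count of Ncad_bone against Ncad_marrow was 6.

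With the replicate number as a block, the count was 2 in ST, against 4 without it, and moved by less than 1.5 times elsewhere: 8 in MPP, 7 in 5FuReserve, 12 in Ncad_bone, 22 in Col23_GFP and in Ng2_rFP, 25 in Pecam_GFP, and 11 in Mac, in 5Fu_Ncad_bone and in the interaction. Leaving out each replicate in turn, counts ranged from 0 to 1 in Primed, 2 to 5 in ST, 5 to 9 in MPP, 6 to 8 in 5FuReserve, 8 to 16 in Ncad_bone, 21 to 25 in Col23_GFP, 19 to 24 in Ng2_rFP, 22 to 26 in Pecam_GFP, 10 to 12 in Mac, 8 to 15 in 5Fu_Ncad_bone, 9 to 11 in the interaction and 38 to 40 in the F test.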
